A study of Ovis aries with 2 samples.

Results

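The 9 genes described here encode the contractile machinery of smooth muscle and the proteins that regulate it. They are the myosin heavy chain MYH11, the myosin light chain MYL9, the light chain kinase MYLK, the actin-associated proteins CNN1, SMTN, LMOD1 and SYNPO2, the intermediate filament protein DES and the calcium pump inhibitor PLN. They were taken by symbol, and each symbol matched 1 of the 21890 genes in the tables of both libraries. None of the 9 was used to group cells or to name a group of cells.

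Single-cell RNA was measured in sheep of 1 to 2 years of age. One library came from a cell-free vascular graft titled H2R5-ATEV, whose source is given as carotid artery and which was explanted after 12 weeks, and 1 library came from the native carotid artery, whose sample title calls it aorta. Both vessels were perfused with an enzyme mixture and digested for 20 minutes, and red blood cells were lysed before capture. The labels do not give the number of animals behind a library. With 1 library per group no difference below has a replicate check, and every interval covers counting error only.

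Smooth muscle contracts when a rise in calcium activates myosin light chain kinase, which phosphorylates the regulatory light chain and lets the MYH11 motor pull on actin. Calponin, smoothelin, leiomodin and synaptopodin-2 act on the actin filament, desmin links dense bodies to the rest of the cytoskeleton, and phospholamban slows the return of calcium to the sarcoplasmic reticulum. In arteries these transcripts mark differentiated medial cells, and many of them decline when such cells take on a matrix-producing state.

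After filtering, 1074 graft cells held 35167561 unique molecular identifiers (UMIs, 1 per captured transcript) and 10080 native cells held 40609279. The median cell held 20737.5 UMIs in the graft and 1510 in the artery, so shares of cells are compared below after thinning each cell to 1 fixed depth. Cells were clustered jointly, and clusters were named from markers other than the 9 genes, so that each class is smooth muscle-like, endothelial-like and so on, written without the ending. The smooth muscle class held 201 graft cells (18.7% of graft cells) and 140 native cells (1.39% of native cells). Its cells lay mostly in different clusters, cluster 19 for 198 graft cells and cluster 11 for 128 native cells. The libraries shared 7 cell barcodes, of which 1 was in the graft smooth muscle class and 0 in the native one.

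The clusters of the class were named from 12 markers, so the levels of those markers describe the class and are no check of its name. All 12, among them ACTA2, TAGLN and CALD1, were detected in both libraries, at a summed level of 19635 CPM in the graft, against 12681 CPM in the artery. CPM are UMIs per 1000000 UMIs of the class in that library. Of 12 measured genes of skeletal and cardiac muscle, 10 were detected in graft cells, at a summed 16.8 CPM, and 4 in native cells, at a summed 28.9 CPM; CKM and TNNC1 were at 0 in both. Other cell types' markers were not absent from it. The 8 measured macrophage markers summed to 1314 CPM in graft cells, with all 8 detected, and 169 CPM in native cells, with 7 detected and MSR1 at 0. The 10 fibroblast markers summed to 3206 CPM in graft cells and 2589 CPM in native cells, with all 10 detected in both. The 11 measured endothelial markers summed to 401 CPM in graft cells and 487 CPM in native cells, all detected. The part of these other transcripts in the ratios below was tested only by leaving out cells that carried macrophage, endothelial, T or NK markers, where MYH11, DES and PLN kept their calls; the part of fibroblast transcripts was not tested.

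In the graft nearly all transcripts of the 9 genes sat in the smooth muscle class, while in the artery most of them lay outside it. The class held 92.6% of the 30532 member UMIs of the graft and 40.6% of the 7073 member UMIs of the artery. Class size differs with this, since the class was 18.7% of graft cells and 1.39% of native cells. For MYH11 the share was 97.4% in the graft and 94.9% in the artery, and for CNN1 97.4% and 88.6%. MYL9 differed most from these, with 84.4% of its graft UMIs but 12.8% of its native UMIs in the class. Most native MYL9 UMIs, 2289 of 3487, came from endothelial cells.

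**Figure D1:**
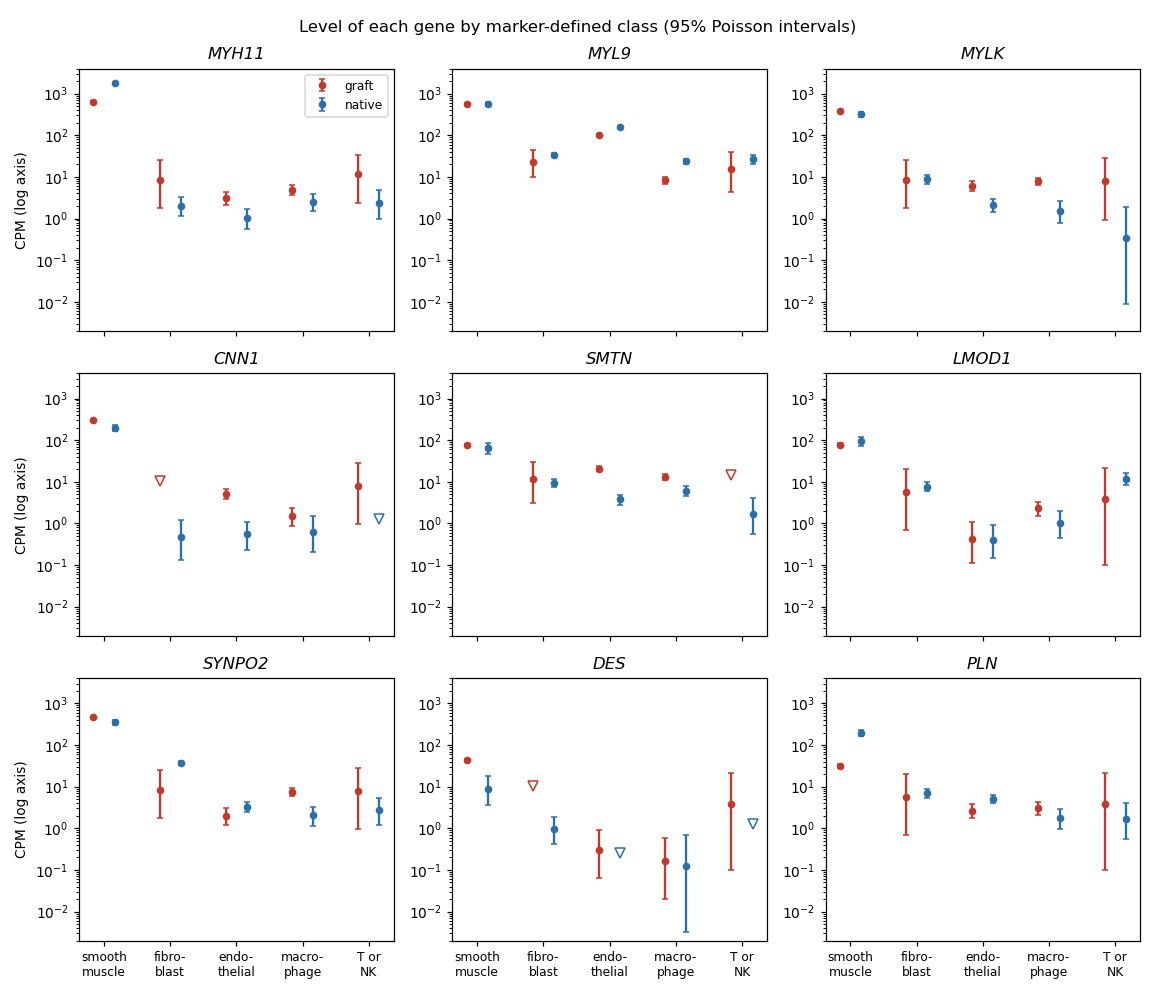
CPM of each gene (log axis) in 5 marker-defined classes of the graft (red) and the native artery (blue), with exact 95% Poisson intervals; open triangles give the upper bound where a class held 0 UMIs. Every gene was highest in the smooth muscle class of its own library, with MYL9 second highest in endothelial cells at 102 CPM in the graft, against 157 CPM in the artery.

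MYH11 (ENSOARG00020022849), the heavy chain that defines smooth muscle myosin, was lower in the graft. The smooth muscle class held 6985 MYH11 UMIs in the graft, or 642 CPM, and 1451 in the artery, or 1825 CPM. That is 2.84-fold lower in the graft (95% exact conditional binomial interval 2.68 to 3.01). Among the 14250 genes tested in the class, those with at least 10 UMIs over both libraries, 97.1% had a higher log2 ratio than MYH11. The difference was larger in cells of at least 5000 UMIs, at 643 CPM in 198 graft cells, against 2152 CPM in 46 native cells. Those 46 cells held 1329 of the 1451 native UMIs. In native cells between 1000 and 5000 UMIs, MYH11 stood at 748 CPM (617 to 897, 61 cells). Under 1000 UMIs it stood at 295 CPM (119 to 608, 33 cells). The graft class had 3 cells between 1000 and 5000 UMIs, with 1 MYH11 UMI, so the libraries cannot be compared at the lower depths. The size and the call of the MYH11 difference depended on how cells were weighted and chosen. The log2 ratio of −1.50, computed after adding 5 CPM to both levels, was −0.70 with equal weight for each cell, −0.91 after thinning to 1000 UMIs and −0.15 when each cell was assigned by its own marker scores. Within a cluster the libraries lay closer together, on few cells of one of them. In cluster 11 MYH11 stood at 1872 CPM in 3 graft cells (62 UMIs), against 1944 CPM in 128 native cells, and in cluster 19 at 639 CPM in 198 graft cells, against 769 CPM in 12 native cells (62 UMIs). Cluster and library nearly coincide in this class, so their parts in the difference cannot be told apart, and this was not tested.

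Summed over the class, the regulatory light chain MYL9 (ENSOARG00020006826), the substrate of MYLK, was at the same level in both libraries within counting error. It stood at 574 CPM in the graft, against 564 CPM in the artery, a ratio of 1.02 (0.925 to 1.12). The motor's chains therefore stood in different proportions: MYH11 took 24.7% of the UMIs of the 9 genes in graft smooth muscle cells (24.2 to 25.2%) and 50.5% in native ones (48.6 to 52.3%), whereas MYL9 took 22.1% and 15.6%. In cells of at least 5000 UMIs, MYL9 stood at 574 CPM in the graft (560 to 589), against 659 CPM in the artery (597 to 726). Over the 15 alternatives run, the log2 ratio of MYL9 lay between −0.60 and 0.72.

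MYLK (ENSOARG00020000157), the kinase that phosphorylates this light chain, stood at 388 CPM in the graft, against 318 CPM in the artery, a ratio of 1.22 (1.07 to 1.39). The interval lies above 1 but the difference is below the 2-fold limit used for a call. Calls here need a ratio of at least 2 in either direction.

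The 4 actin-associated genes all lay within 2-fold. CNN1 (ENSOARG00020007271), calponin, an inhibitor of the actomyosin ATPase, stood at 302 CPM in the graft, against 195 CPM in the artery, 1.55-fold higher (1.32 to 1.83). SYNPO2 (ENSOARG00020011882), an actin-bundling protein of dense bodies, stood at 464 and 350 CPM, 1.33-fold higher in the graft (1.18 to 1.50). SMTN (ENSOARG00020019366), a smoothelin of contractile smooth muscle, stood at 76.6 CPM in the graft, against 64.1 CPM in the artery, and LMOD1 (ENSOARG00020021739), which nucleates actin filaments, at 78.3 CPM in the graft, against 94.3 CPM in the artery. The ratio of SMTN was 1.19 (0.900 to 1.62) and that of LMOD1 0.830 (0.655 to 1.07), so neither differed beyond counting error. With cells assigned by their own marker scores, the log2 ratios of CNN1, SYNPO2, SMTN and LMOD1 were 1.91, 1.86, 1.43 and 1.01, each past the limit, and that of MYLK was 1.61.

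DES (ENSOARG00020014096), desmin, was higher in the graft on few native transcripts. The graft class held 464 DES UMIs in 74 of 201 cells, or 42.7 CPM, and the native class 7 UMIs in 4 of 140 cells, or 8.80 CPM. The ratio was 4.85 with a wide interval, 2.33 to 12.1. In the graft the gene was uneven between cells: the highest cell held 49 UMIs, 10.6% of the total, and 127 cells held none. Of the 7 native UMIs, 3 lay in cells under 1000 UMIs, and with equal weight for each cell the log2 ratio was −0.044, against 1.79.

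PLN (ENSOARG00020032121), phospholamban, the inhibitor of the sarcoplasmic reticulum calcium pump, was the most strongly lowered of the 9. It stood at 30.7 CPM in the graft (334 UMIs) and 197 CPM in the artery (157 UMIs), 6.43-fold lower in the graft (5.28 to 7.79). PLN stayed at least 2-fold lower in the graft in all 15 alternatives run, with log2 ratios between −3.08 and −1.46. In cluster 11 alone PLN stood at 242 CPM in the graft, on 8 UMIs, against 211 CPM in the artery, and in cluster 19 at 30.1 CPM in the graft, against 74.4 CPM in the artery, on 6 UMIs. In the RefSeq annotation of assembly ARS-UI_Ramb_v3.0 PLN overlaps CEP85L, which stood at 52.3 CPM in the graft class and 93.1 CPM in the native class. The strand setting of the authors' counting is not given in the sources used here, so reads of the 2 genes may not be separable. MYLK and SYNPO2 also overlap uncharacterised genes in that annotation.

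Of the 9 genes, 1 was called higher and 2 lower in the graft class. In the same comparison 18.9% of all 14250 genes tested were called higher and 16.3% lower. Those shares include genes of few UMIs, which can pass the 2-fold limit by counting error alone. They were not computed for genes as abundant as the 9, so they cannot show whether the 9 were called unusually often. The same limit holds wherever shares of all genes are given below. The median log2 ratio of the 9 was 0.24, beside −0.01 for all genes tested. The 2 lower genes, MYH11 and PLN, stood beside 6 that lay within 2-fold.

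**Figure D2:**
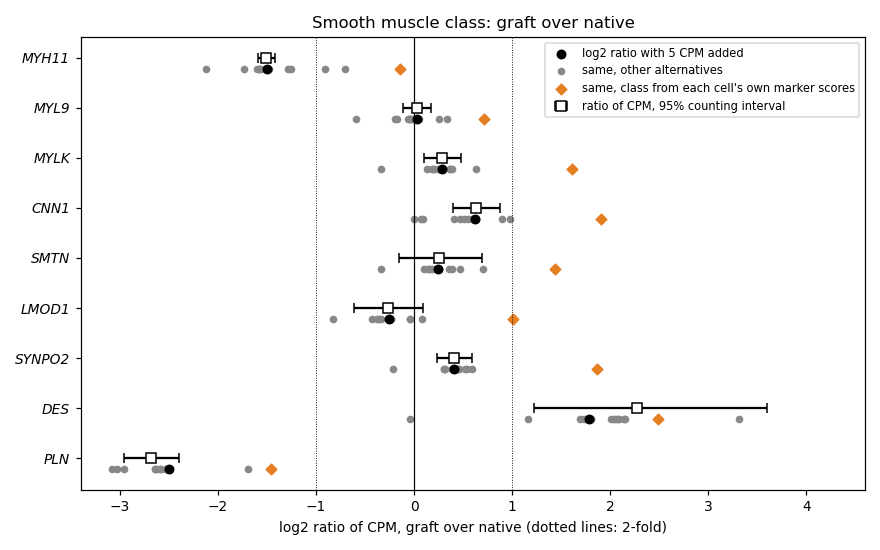
Log2 ratio of graft over native level for each gene in the smooth muscle class: open squares give the ratio of CPM with its 95% counting interval, black circles the log2 ratio after adding 5 CPM, grey circles that ratio under other processing choices, and orange diamonds with cells assigned by their own marker scores. PLN lies left of the 2-fold line in every setting, MYH11 in all but 3 alternatives, and the remaining genes except DES between the 2-fold lines, apart from 5 of the diamonds.

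Counted per cell at equal depth, MYH11 and PLN were found in fewer graft cells where the depth was high, and the order depended on how the class was drawn. After thinning to 1000 UMIs, MYH11 was detected in 42.8% of graft cells (35.8 to 49.9%) and 53.3% of native cells (43.4 to 63.0%), and PLN in 4.48% of graft cells (2.07 to 8.33%) and 9.35% of native cells (4.57 to 16.5%), with overlapping intervals. After thinning to 5000 UMIs, a depth chosen after seeing the data that 198 graft and 46 native cells of the class could meet, MYH11 was detected in 64.1% of graft cells (57.0 to 70.8%) and 87.0% of native cells (73.7 to 95.1%). PLN was detected in 14.6% of graft cells (10.0 to 20.4%) and 52.2% of native cells (36.9 to 67.1%). The intervals of each gene do not overlap between the libraries at this depth. With cells assigned by their own marker scores and thinned to 1000 UMIs, the order was the opposite, with MYH11 in 46.5% of graft and 16.1% of native cells and PLN in 4.04% and 3.61%. For MYH11 it was also the opposite, by under 2 percentage points, at a clustering resolution of 2 and with each library clustered by itself. In macrophages, which should not make either protein, the shares at 5000 UMIs were 3.25% of graft and 0.718% of native cells for MYH11 and 0.974% and 0.239% for PLN.

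The other 7 genes had overlapping intervals at 5000 UMIs. MYLK was detected in 70.2% of graft cells and 63.0% of native cells, SYNPO2 in 70.7% and 65.2%, and MYL9 in 64.1% and 69.6%. CNN1 was detected in 41.4% of graft and 34.8% of native cells, SMTN in 35.9% and 21.7%, and LMOD1 in 23.7% and 41.3%. DES was detected in 9.60% of graft cells (5.88 to 14.6%) and 4.35% of native cells (0.531 to 14.8%), on 46 native cells. Without thinning, where graft cells are far deeper, MYH11 was found in 80.6% of graft and 57.1% of native cells and PLN in 48.3% and 35.7%, the opposite order.

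**Figure D3:**
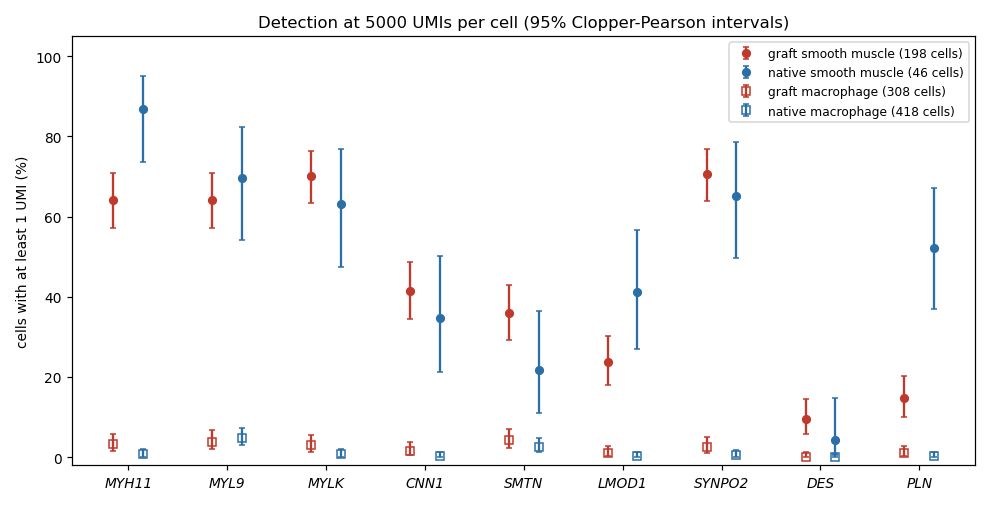
Share of cells (%) with at least 1 UMI of each gene after thinning every cell to 5000 UMIs, in smooth muscle cells (filled circles) and macrophages (open squares) of the graft (red) and the artery (blue), with 95% Clopper-Pearson intervals. MYH11 and PLN are the 2 genes whose graft and native smooth muscle intervals do not overlap, and macrophages stay below 5% for every gene.

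The number of the 9 genes seen in 1 cell was similar in the libraries. At 5000 UMIs the median graft cell showed 4 of the genes (quartiles 2 and 6) and the median native cell 4.5 (quartiles 3 and 6). At least 5 genes were seen in 87 of 198 graft cells (43.9%, 36.9 to 51.2%) and in 23 of 46 native cells (34.9 to 65.1%). None was seen in 13 graft cells and 4 native cells. At this depth both libraries thus held smooth muscle cells with many of these transcripts and cells with none seen. Without thinning, none was seen in 5 of 201 graft cells and 29 of 140 native cells, with medians of 7 and 2 genes. At 1000 UMIs, which 201 graft and 107 native cells met, the median cell of either library showed 1, and the median share of cells over the 9 genes was 18.4% in the graft and 14.0% in the artery.

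Summed over the 9 genes, graft cells at 5000 UMIs held a median of 9 UMIs (quartiles 4 and 18, highest 62) and native cells a median of 14 (quartiles 7.25 and 26.5, highest 104). Of MYH11 the median graft cell held 2 UMIs and the median native cell 7. Of SYNPO2 these were 2 and 1, and of MYLK 1 and 1.

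Most of the genes varied together from cell to cell, and PLN in the graft did not. At 5000 UMIs the median Spearman correlation over the 36 pairs of genes was 0.26 in 198 graft cells and 0.37 in 46 native cells. The points are cells of 1 library, so these values are descriptions. The highest pair in the graft was MYL9 with CNN1 at 0.71, which was 0.70 in the artery, and the highest in the artery was MYH11 with MYL9 at 0.83, which was 0.55 in the graft. PLN had a median correlation of 0.01 with the other 8 genes in the graft, with a range of −0.08 to 0.10, and 0.24 in the artery, with a range of −0.07 to 0.43. PLN was seen in 29 graft cells and 24 native cells, so its values rest on few cells. At 1000 UMIs the median over pairs was 0.08 in both libraries, with values for 28 of 36 pairs in the artery because no native cell retained a DES UMI.

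**Figure D4:**
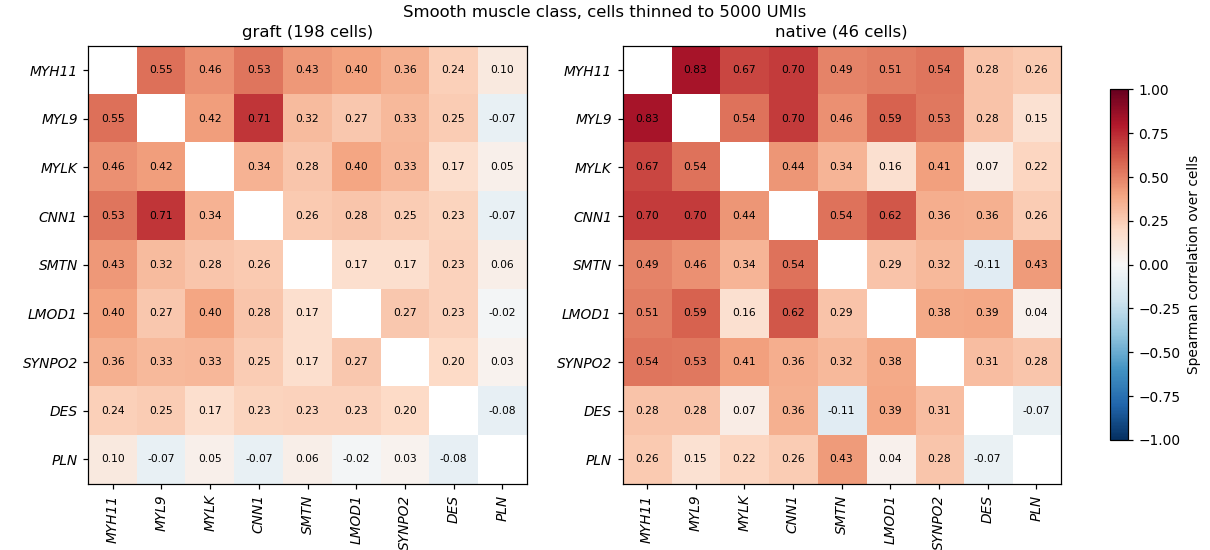
Spearman correlation over smooth muscle cells thinned to 5000 UMIs for each pair of the 9 genes, in 198 graft cells (left) and 46 native cells (right). The PLN row is close to 0 throughout the graft matrix, between −0.08 and 0.10, while MYH11, MYL9 and CNN1 form the most strongly correlated block in both.

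Cells rich in the 9 genes were also rich in the naming markers. The summed UMIs of the 9 correlated at 0.86 with those of the naming list in graft cells and at 0.84 in native cells. With the list of non-muscle myosin chains the values were 0.74 and 0.67, and with the dense body list 0.73 and 0.64. The most abundant gene of that myosin list, MYL6, encodes a light chain that smooth muscle myosin shares. Its values are therefore not particular to non-muscle myosin. With the 10 fibroblast markers the correlations were −0.57 in graft cells and −0.28 in native cells, so that graft cells low in contractile transcripts carried more fibroblast transcripts. The share of mitochondrial UMIs correlated with the sum at −0.33 in graft cells and 0.13 in native cells, and its part was not tested. With the list of matrix and modulated smooth muscle genes the sum correlated at −0.12 in graft cells and 0.30 in native cells. MYH11 alone correlated with that list at −0.27 in graft cells, the lowest of the 9, and at 0.26 in native cells. The highest in graft cells was MYL9, at 0.18. At 1000 UMIs the values of the sum were −0.03 over 201 graft cells and 0.44 over 107 native cells, and those of MYH11 −0.15 and 0.50.

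Outside smooth muscle the genes were mostly low relative to their level in it, with MYL9 and SMTN among the exceptions. Endothelial MYL9 was 17.8% of the smooth muscle level in the graft and 27.8% in the artery, and endothelial SMTN 27.0% and 5.86%, with 17.3% and 9.54% for SMTN in macrophages. LMOD1 was 12.7% of that level in native T or NK cells, SYNPO2 10.8% in native fibroblasts and PLN 9.92% in graft macrophages. MYH11 stood at 53.8 CPM in the 247 unnamed graft cells, on 86 UMIs, of which 78 lay in cluster 9, described with the processing below. In endothelial cells, where MYL9 serves non-muscle contraction, it stood at 102 CPM in the graft, against 157 CPM in the artery, 0.653 of the native level (0.605 to 0.703). Graft endothelial cells lay in cluster 23 for 177 of 180 cells and native ones mainly in clusters 0, 1, 6 and 7. SMTN stood at 20.7 CPM in graft and 3.76 CPM in native endothelial cells, 5.50-fold higher (4.06 to 7.55), and CNN1 at 5.14 and 0.547 CPM, 9.40-fold higher (4.42 to 23.0) on 50 and 8 UMIs. With MYH11 and MYLK, 4 of the 8 genes tested were called higher in graft endothelial cells and 0 lower, where 15.2% of all genes were called higher and 17.0% lower.

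Part of these low levels was matched in macrophages, which should lack smooth muscle myosin. MYH11 stood at 3.09 CPM in graft endothelial cells and at 4.86 CPM in graft macrophages, and MYLK at 6.07 and 7.82 CPM, so neither exceeded the macrophage level. SMTN, at 13.3 CPM in graft macrophages, and CNN1, at 1.48 CPM there, were lower in macrophages than in graft endothelial cells. In macrophages 5 of 8 genes tested were called higher in the graft and 1, MYL9, lower, where 9.75% of all genes were called higher and 13.2% lower. The graft macrophages were uneven. Without thinning, 10 of 318 carried at least 5 of the 9 genes, against 0 of 1654 native macrophages, which are shallower. After thinning to 5000 UMIs the count was 0 in both libraries. Smooth muscle cells were 18.7% of graft cells and 1.39% of native cells. Free RNA was not measured, and its part in these low levels, or that of barcodes mixing cells, was not tested.

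Among native cells MYL9 followed the depth of the cell in classes outside smooth muscle. In native T or NK cells it stood at 165 CPM in cells under 1000 UMIs, 28.3 CPM between 1000 and 5000 UMIs and 2.81 CPM at 5000 UMIs or more. In native macrophages the same order gave 145, 90.6 and 6.07 CPM, and in native fibroblasts 168, 77.0 and 18.9 CPM. Endothelial cells ran the same way over a smaller range, at 230 (203 to 260), 156 and 149 CPM (141 to 156). MYH11 in native smooth muscle cells ran the other way, at 295, 748 and 2152 CPM over 33, 61 and 46 cells. The cause was not tested, and the level of MYL9 in shallow immune cells is given here as a value only.

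**Figure D5:**
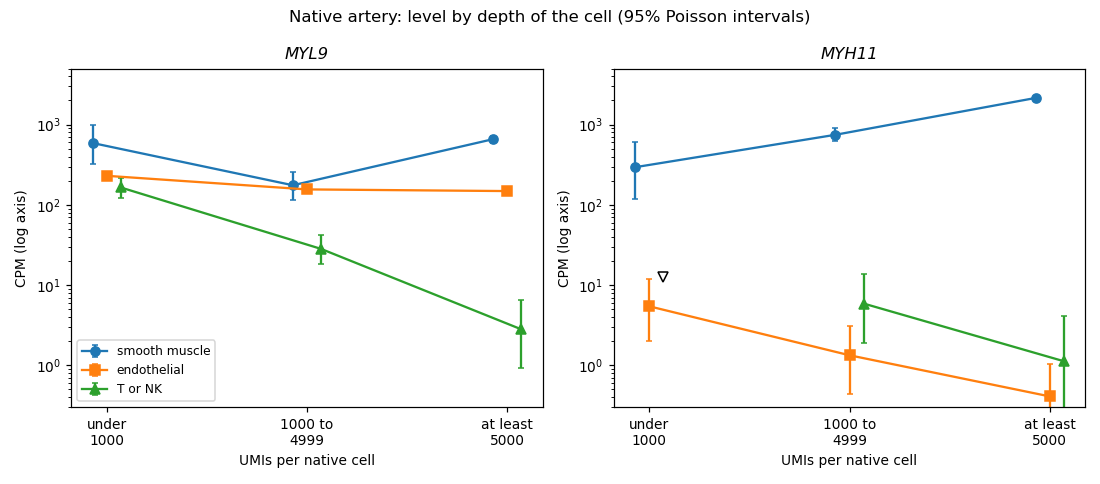
CPM (log axis) of MYL9 (left) and MYH11 (right) in native smooth muscle, endothelial and T or NK cells split by UMIs per cell, with 95% Poisson intervals; the open triangle is an upper bound for 0 UMIs. MYL9 in T or NK cells declines to 2.81 CPM in the deepest cells while endothelial MYL9 declines less, to 149 CPM, and MYH11 in smooth muscle cells is highest, at 2152 CPM, in the deepest.

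Fibroblasts of the artery carried some of the regulators. SYNPO2 stood at 37.7 CPM there (318 UMIs in 1767 cells), which was more native UMIs than the 278 of the smooth muscle class. MYLK, LMOD1, PLN and SMTN stood at 8.77, 7.71, 6.99 and 9.60 CPM, and MYH11 at 2.01 CPM. The 28 graft fibroblasts held 25 UMIs of all 9 genes, too few to compare. LMOD1 stood at 12.0 CPM in native T or NK cells, on 35 UMIs, higher than its 1.02 CPM in native macrophages, and at 12.9 CPM in those of at least 5000 UMIs, where MYH11 was at 1.13 CPM.

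Most genes that control light chain phosphorylation lay within 2-fold. Of 13 measured, 1 was called higher and 0 lower in the graft class, where 18.9% of all genes tested were called higher and 16.3% lower. Their median log2 ratio was −0.17, beside −0.01 for all genes tested. The 1 called, ARHGAP42, which turns off RhoA signalling in smooth muscle, stood at 266 CPM in the graft, against 106 CPM in the artery, 2.52-fold higher (2.03 to 3.17). The most abundant of the list were PPP1R12A, the targeting subunit of myosin phosphatase, at 589 CPM in the graft, against 555 CPM in the artery, and ROCK1, the kinase that inhibits it, at 319 and 507 CPM. ROCK1 was 1.59-fold lower (1.43 to 1.76), beyond counting error though within 2-fold. Of 6 measured non-muscle myosin chains none was called lower, where 16.3% of all genes tested were. MYL6, an essential light chain that smooth muscle myosin shares, stood at 2255 CPM in the graft, against 1752 CPM in the artery, with MYH10 at 639 and 487 CPM. MYL6B met the 2-fold rule only through 0 native UMIs, and its 18 graft UMIs lie below the level of 3 counts in the native class, so no ratio is given.

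Of 13 calcium handling genes tested, 1 was called higher and 5 lower, where 18.9% of all genes were called higher and 16.3% lower, with a median log2 ratio of −0.59 beside −0.01 for all genes. SLC8A1, the sodium-calcium exchanger, stood at 506 CPM in the graft, against 1269 CPM in the artery, 2.51-fold lower, and CACNB2, a calcium channel subunit, at 46.5 and 146 CPM, 3.14-fold lower. STIM1, the store calcium sensor, was 2.82-fold lower, and the remaining 2, RYR3 and ATP2A3, rest on 10 and 13 native UMIs. ATP2B1, a plasma membrane calcium pump, was 2.85-fold higher (2.26 to 3.64). ATP2A2, which encodes the pump that PLN inhibits, stood at 165 CPM in the graft, against 174 CPM in the artery, and RYR2, the release channel, at 478 and 816 CPM, both within 2-fold.

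Among 11 regulators of contractile gene transcription, 0 were called higher and 3 lower, beside the same 18.9% and 16.3% of all genes. FHL1, a LIM-domain protein of muscle, stood at 172 CPM in the graft, against 787 CPM in the artery, 4.57-fold lower (4.17 to 5.00). HEYL, a target of Notch signalling, was 3.24-fold lower, and GATA6 was at the limit, 2.00-fold lower (1.69 to 2.36). MYOCD, the coactivator that drives the contractile programme, stood at 24.7 CPM in the graft (269 UMIs) and 39.0 CPM in the artery (31 UMIs), 0.634 of the native level (0.437 to 0.952), and PRRX1, a mesenchymal factor, at 534 and 294 CPM.

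Of 18 dense body, Z-disc and intermediate filament genes, 3 were called higher and 4 lower, beside the same 18.9% and 16.3% of all genes. PDLIM5 stood at 785 CPM in the graft, against 321 CPM in the artery, 2.45-fold higher, and ACTN1, the actin crosslinker, at 1181 and 561 CPM, 2.10-fold higher. SORBS2 was 3.93-fold lower (3.44 to 4.47), SVIL 2.55-fold lower, and NEXN, the most abundant on average with ACTN1, stood at 950 and 1043 CPM. SYNM, which pairs with desmin in filaments, was 2.19-fold lower (1.29 to 3.53) at 11.5 and 25.2 CPM, opposite to DES.

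Most genes on the list of matrix and modulated smooth muscle genes were higher in the same class. Of its 12 genes, not all of which encode matrix proteins, 8 were called higher and 0 lower. Of all genes 18.9% were called higher. The median log2 ratio of the list was 1.63. THBS1 was 38.7-fold higher (27.1 to 57.4), at 1461 CPM in the graft, against 37.7 CPM in the artery, and TNC 7.66-fold higher. Both are secreted matrix proteins of remodelling vessels. The 2 chains of type I collagen were the most abundant, with COL1A1 6.11-fold and COL1A2 3.06-fold higher. Within the naming list 1 of 12 genes was called higher, ACTG2, the smooth muscle gamma actin, at 621 and 54.1 CPM, 11.5-fold higher (8.52 to 15.9), while CALD1 was 1.48-fold and ACTA2 1.42-fold higher.

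Few genes that mark neighbouring muscle and mural cell types could be tested. Of 5 pericyte genes tested 2 were called higher and 1 lower, where 18.9% of all genes were called higher and 16.3% lower. These are too few genes to set against those shares. NDUFA4L2 had 546 UMIs in graft cells and 0 in native cells, CSPG4 was 4.28-fold higher (2.91 to 6.58), and KCNJ8 was lower on 8 native UMIs. PDGFRB, a growth factor receptor of mural cells, stood at 199 CPM in graft cells and 248 CPM in native cells. Of 12 measured striated muscle genes 4 could be tested, with 2 called higher and 2 lower, also too few to set against those shares. NEB, a giant thin filament protein, stood at 4.69 CPM in the graft, against 17.6 CPM in the artery, and TNNT3, a fast skeletal troponin, at 2.21 and 7.55 CPM, both called lower. TNNT1 and TNNI2 were called higher only through 0 native UMIs: TNNT1, on 11 graft UMIs, lies below the level of 3 counts in the native class, 3.77 CPM, and TNNI2, on 78, at 7.17 CPM lies less than 2-fold above it.

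The scaling moves all of these ratios together. With the UMIs of the 12 naming genes in place of all UMIs as the total, the log2 ratio of MYH11 was −2.12, that of PLN −2.96 and that of MYL9 −0.60, with a median of −0.39 for all genes.

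The genes whose level over 11 pairs of library and class was most like the mean of the 9 were RGS5, SEMA5A, C1orf198, SBSPON, STYXL2, MMP3, HAND2, IRAG1, FAT3 and HECW2, among 6151 genes of at least 50 CPM in some pair. Pearson correlations were 0.98 for RGS5, a regulator of G protein signalling found in mural cells, and 0.94 for the last. They rest mainly on the gap between the 2 smooth muscle pairs and the other 9. RGS5 stood at 487 CPM in graft and 575 CPM in native smooth muscle cells, and SEMA5A, a semaphorin, at 118 and 364 CPM. IRAG1, a substrate of the cGMP-dependent kinase in smooth muscle, stood at 73.9 and 119 CPM. Of the 9 genes themselves, MYLK followed the mean of the other 8 most closely, at 0.98, and MYL9 least, at 0.82.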

How the data were processed

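Single-cell libraries were made with the 10x Genomics Chromium NextGEM v3.1 kit, per the labels' protocols. Per the submitters' processing notes, the tools were bcl2fastq 2.20.0.422, Cell Ranger 7.2.0, Seurat 5.0.0 and R 4.3.3, with no role stated; the genome build is not given in the sources used here. The deposited values are UMI counts per gene and barcode, whole numbers with no normalization by the authors. The tables hold 21890 genes, of which 6435 have no symbol.

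The members, gene lists, tests and alternatives were chosen with earlier results of these data known. Cells of under 200 genes or over 20% mitochondrial UMIs (13 genes) were left out: 143 graft and 266 native barcodes. Scrublet's automatic call marked 3 graft and 0 native barcodes, so the highest scores were removed at 0.8% per 1000 barcodes, 12 graft and 1034 native. Cells were clustered with scanpy 1.11.5 (2000 variable genes without the 9 members, 30 components, 15 neighbours, Leiden resolution 1, seed 0). A cluster was named where at least 3 markers of a class were 2-fold raised and no other class had more than 50% as many; unnamed clusters held 247 graft and 1228 native cells. One of them, cluster 9, held 197 graft and 10 native cells with a median of 669 UMIs. Its highest marker score was that of smooth muscle, but 0 smooth muscle markers were raised in it. The genes most raised in cluster 9 were ACP5, MMP9, ATP6V0D2, PHETA1 and CTSK, none of them a smooth muscle marker.

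UMIs were summed per class and library and scaled to CPM, with exact Poisson limits at 95%. Limits of ratios are conditional binomial and those of shares Clopper-Pearson, all exact. UMIs are molecules, but capture and cell choice are not covered by them. Log2 ratios use CPM plus 5. Genes of at least 10 UMIs over both libraries count as tested, and a ratio of at least 2 as called. Thinning drew UMIs without replacement. With 1 library per group no test was made. The calculation was tested on simulated data with Python 3.11.15. Named genes are the 9 members and the 10 most like them. Of each related list the 2 most abundant are named, with up to 3 of its largest ratios past 2-fold and at least 30 UMIs. MYOCD, ATP2A2, ATP2A3, RYR3, SYNM, MYL6B, KCNJ8, TAGLN, CEP85L, MSR1, CKM, TNNC1, TNNT1 and the genes most raised in cluster 9 were named after their values were seen. MYL12A, ATP2B4, SLN and FHL2 are not analysed here.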

Additional observations from a re-analysis of the deposited data

How the results depend on the processing

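No paired analysis was possible because each group has 1 library. Thinning to 5000 UMIs, scaling to the naming list, the main clusters alone and leaving out cells with other classes' markers were chosen after seeing the data. The depth of the native class, 795020 UMIs in 140 cells against 10873023 in 201 graft cells, limits DES, SMTN and all native shares of cells. The class itself limits the ratios: marker scores named 241 graft and 411 native cells, of which 170 and 86 were in the cluster-defined class, and 131 of the native cells lay near the limit of the score.

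PLN was lower in the graft in 15 of 15 alternatives. DES changed sign with equal weight for each cell, to a log2 ratio of −0.044; the log2 ratio of MYH11 kept its direction. The share of cells with MYH11, lower in the graft at 1000 UMIs, was higher there by marker scores, at 46.5% against 16.1%, at resolution 2, at 61.0% against 59.4%, and with each library clustered by itself, at 60.0% against 58.8%; that of PLN was higher by marker scores, at 4.04% against 3.61%. MYL9, MYLK, SMTN, LMOD1 and SYNPO2, which were not called, had either sign over the alternatives. The median log2 ratio of the 9 was 0.24 and became 1.43 with cells assigned by their own marker scores and −0.34 when scaled to the naming list. By marker scores 6 genes were called higher and 1 lower, and with equal weight for each cell and after thinning to 1000 UMIs the counts were 0 and 1. The shares of all genes called in these settings are not given here, so whether these counts are unusual cannot be said. The median share of graft cells over the 9 genes, 18.4%, was 31.4% at resolution 2, 34.0% with each library clustered by itself, 25.9% at 2000 UMIs and 41.4% at 5000 UMIs. In native cells 14.0% became 4.92% by marker scores, 25.6% at 2000 UMIs and 52.2% at 5000 UMIs. The median number of genes per graft cell, 1, became 2 at resolution 2, with separate clustering, by marker scores and at 2000 UMIs, and 4 at 5000 UMIs. In native cells it became 0 by marker scores, 1.5 with no doublet removal, 2 at 2000 UMIs and in the main clusters alone, and 4.5 at 5000 UMIs. The median correlation over pairs, 0.08 in both, was 0.26 at 5000 UMIs in the graft, and 0.27 at 2000 and 0.37 at 5000 UMIs in the artery. Each depth changed both the UMIs drawn and the cells kept (107, 82 and 46 native cells at 1000, 2000 and 5000 UMIs); which of these moved the values, and the cause of the other changes, was not tested.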
